A study of Akebia trifoliata with 9 samples.

Results

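In leaves of the woody vine Akebia trifoliata, 75 of 82321 assembled genes were at their lowest in all 3 libraries from plants given both acid rain and curcumin, and stood at similar levels with acid rain alone and with distilled water. The 75 genes were selected on the measured values themselves, in TPM, a unit that gives each gene's length-corrected part of a library's transcripts on a scale with the same total in every library. A gene was kept where its highest CUR50 value lay below the lowest of the 6 CUR0 and Control values and its Control mean was at least 5 TPM. With 1 TPM added to each group mean, the CUR50 mean also had to be at least 2-fold below the smaller of the other means, and the CUR0 and Control means had to be within 1.5-fold of each other. These conditions use all 9 libraries, so the lower CUR50 level and the likeness of CUR0 and Control are how the list was made and not findings about it.

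Acid rain brings protons onto the leaf surface, where they can damage the cuticle, leach cations and depress photosynthesis. Curcumin is the yellow polyphenol of turmeric, a compound known as an antioxidant, and in this study it was offered to the roots. Set against plants under acid rain alone and plants under neither, the treated plants allow genes that were low with the compound to be listed apart from genes that moved with the spray.

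The study has 3 groups of 3 libraries, each made from leaves of cuttings after 28 days. The CUR50 plants were watered at the roots with curcumin at 50 µmol/L and sprayed with simulated acid rain of pH 2.0. The CUR0 plants had the same spray and a solution with 0 µmol/L of curcumin, and the Control plants received distilled water at root and leaf. CUR50 therefore differs from CUR0 by curcumin, and from Control by curcumin and acid rain together; curcumin without acid rain is not among the groups. The labels speak of 4 plants and of 3 replicates per treatment, so it is not clear that each library is 1 plant, and part of the spread between libraries could be technical.

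The 82321 identifiers are those of a transcriptome assembly, and 0 of them matched the 32005 genes of the Akebia trifoliata reference table. The files pair no identifier with a name, so what the members encode is not stated, and marker lists of leaf cell types, stress pathways or other organisms could not be applied. In bulk leaf, fewer cells of a type and less RNA per cell cannot be told apart. The CUR50 libraries were less alike than the others. Over the 31754 tested genes the median SD of log2(TPM + 1) was 0.32 within CUR50, 0.21 within CUR0 and 0.18 within Control. On the first principal component, with 31.2% of the variance, CUR50 replicates 1 and 3 lay at -77.4 and -73.6, but CUR50 replicate 2 lay at -16.9, within the CUR0 libraries' range of -26.9 to -12.8. On the next, with 18.6%, CUR50 replicates 1 and 3 lay at 55.7 and 50.6 and CUR50 replicate 2 at -1.29, with the CUR0 libraries between -67.8 and -44.3. On the one after, with 13.5%, CUR50 replicate 1 lay at 70.7 and CUR50 replicates 2 and 3 at -69.0 and -49.2. Counts are therefore also given with single CUR50 libraries left out. The number of reads behind a TPM value cannot be recovered, and depth is unknown.

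The list as a whole was a small share of leaf transcripts. Its 75 genes summed to 1029, 1211 and 907 TPM in CUR50 replicates 1, 2 and 3. They summed to 2598, 2981 and 2771 TPM in the CUR0 libraries, and to 2868, 2767 and 3076 TPM in the Control libraries. The mean sum was 1049 ± 153 TPM in CUR50, 2783 ± 192 TPM in CUR0 and 2904 ± 158 TPM in Control (SD, n = 3 each), so CUR50 held 37.7% of the CUR0 sum and 36.1% of the Control sum. CUR50 replicate 2 was the highest of its group and CUR50 replicate 3 the lowest, and the CUR0 and Control sums overlapped. The 3 most abundant members carried 51.2% of the summed TPM in CUR50, 47.2% in CUR0 and 47.5% in Control. Without them the sum was 512 ± 89 TPM in CUR50, 1469 ± 57 TPM in CUR0 and 1524 ± 42 TPM in Control.

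The median member stood at 3.73 ± 0.97 TPM in CUR50, 12.5 ± 0.8 TPM in CUR0 and 13.2 ± 1.1 TPM in Control (SD over n = 3 libraries of each library's median). On the log2(TPM + 1) scale the median difference over the members was -1.56 between CUR50 and CUR0 and -1.59 between CUR50 and Control. Over all tested genes these medians were 0.12 and 0.03. The scale understates the change of genes with low values. Over the 6 CUR0 and Control libraries, 31 of the 75 members averaged under 10 TPM.

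**Figure D1:**
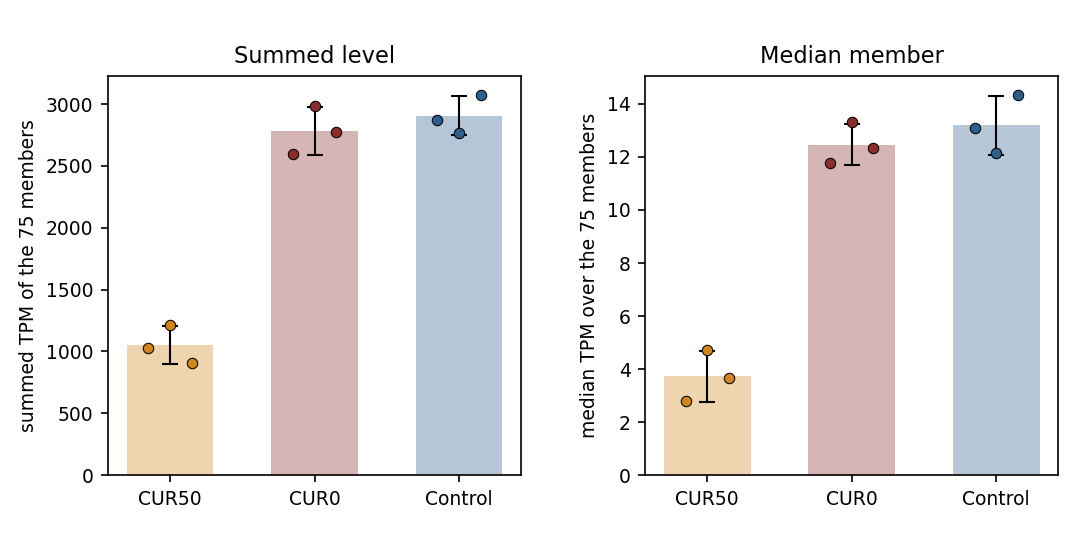
Summed TPM of the 75 members (left) and the median TPM over the members (right) in each library, as points, with the group mean as a bar and the SD over 3 libraries as an error bar. The 3 CUR50 libraries sum to between 907 and 1211 TPM, and the 6 CUR0 and Control libraries to between 2598 and 3076 TPM.

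By level, 31 of the 75 members had a mean under 10 TPM over the 6 CUR0 and Control libraries, 34 had 10 to 50 TPM, 6 had 50 to 100 TPM and 4 had over 100 TPM. The most abundant was TRINITY_DN34246_c0_g1. It had 259, 269 and 251 TPM in CUR50, 483, 639 and 543 TPM in CUR0, and 519, 596 and 724 TPM in Control. The CUR50 libraries of this gene lay close together, at 259.6 ± 9.0 TPM, against 555 ± 79 TPM in CUR0 and 613 ± 104 TPM in Control (SD, n = 3 each), and CUR0 and Control overlapped.

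The second most abundant member had 214, 213 and 149.6 TPM in CUR50, 519.9, 597 and 525 TPM in CUR0, and 602, 423 and 469.9 TPM in Control. Its values averaged 192 ± 37 TPM in CUR50, 547 ± 43 TPM in CUR0 and 498 ± 93 TPM in Control (SD, n = 3 each). The next in level had 71.3, 118 and 66.6 TPM in CUR50, 190.5, 234 and 211 TPM in CUR0, and 245, 251 and 309.5 TPM in Control. In this gene every CUR0 value was also below every Control value. The fourth had 51.7, 49.7 and 43.4 TPM in CUR50, 92.8, 116 and 99.1 TPM in CUR0, and 102, 119.8 and 134 TPM in Control. With 1 TPM added to the means, these 4 genes were 2.13, 2.58, 2.47 and 2.10 times lower in CUR50 than in the smaller other group, in order of level.

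The 2 largest ratios belonged to scarce members. The member with the largest ratio, TRINITY_DN13691_c0_g1, was listed at 0 in all 3 CUR50 libraries. It had 5.83, 2.95 and 6.23 TPM in CUR0 and 7.08, 9.48 and 4.33 TPM in Control, which overlap. A further member was also listed at 0 in all 3 CUR50 libraries, with 3.71, 7.42 and 0.85 TPM in CUR0 and 5.04, 8.72 and 2.37 TPM in Control. No fold is given for these 2 genes, because a listed 0 in a table without read numbers can be a failed estimate. In all, 15 members were listed at 0 in at least 1 CUR50 library, 10 of them in 1 library, 3 in 2 and 2 in all 3. The rule puts every CUR0 and Control value above the highest CUR50 value, so no member could be at 0 in those groups. The highest Control mean among the 15 was 15.4 TPM. The share of all genes with a CUR50 library at 0 was not counted, so nothing is read from the 15.

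Among the other 73 members the ratio ran from 2.02 to 4.59. The member at 4.59 had 0, 0 and 4.37 TPM in CUR50, 4.51, 17.5 and 8.85 TPM in CUR0, and 18.1, 11.1 and 17.0 TPM in Control, so its highest CUR50 and lowest CUR0 value nearly met. The member of the fifth largest ratio was better separated. It had 5.38, 15.5 and 2.59 TPM in CUR50, 39.7, 32.5 and 39.5 TPM in CUR0, and 41.1, 57.3 and 36.2 TPM in Control. The seventh had 2.80, 5.97 and 3.05 TPM in CUR50, 16.4, 18.8 and 19.4 TPM in CUR0, and 22.8, 17.8 and 19.3 TPM in Control. Its ratio of 3.88 came with CUR0 and Control values that were interleaved.

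**Figure D2:**
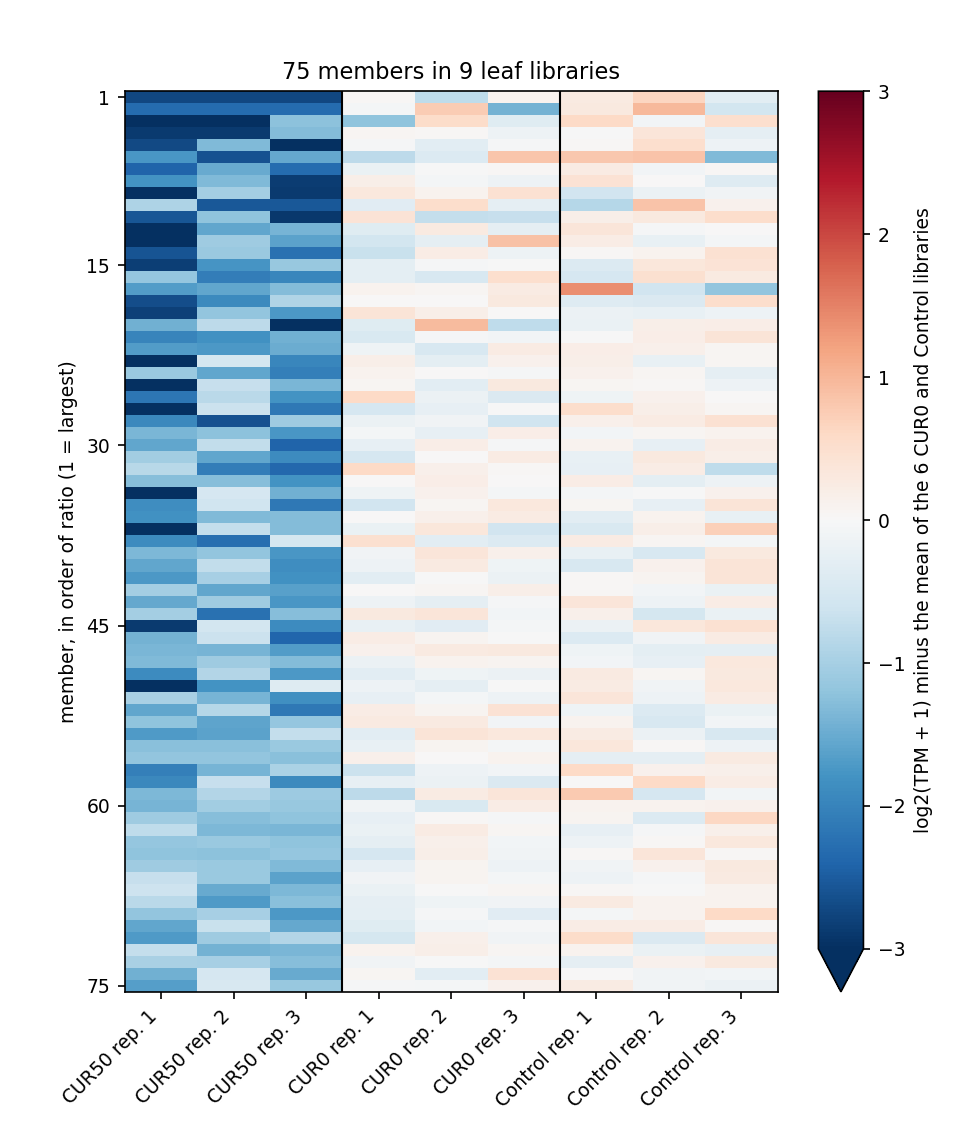
Each row is 1 of the 75 members, in order of the ratio of the smaller other mean to the CUR50 mean, and each column 1 library; color gives log2(TPM + 1) minus the mean of the 6 CUR0 and Control libraries, with values under -3 drawn at the end of the scale. All CUR50 cells are blue because of how the members were chosen. The choice also bounds the highest CUR50 value and the CUR50 mean, so it limits the unevenness among the CUR50 columns without setting it. There 12 members have an SD above 1 and 16 an SD under 0.25. The 16 include the 2 members listed at 0 in all 3 CUR50 libraries.

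The distance between the highest CUR50 and the lowest other library varied widely. It had a median of 0.53 on the log2(TPM + 1) scale and ran from 0.017 to 1.98. It was at least 0.5 in 40 members and at least 1 in 7, and under 0.1 in 6. Of the 14608 genes with a Control mean of at least 5 TPM, 876 (6.0%) had all 3 CUR50 values below the 6 others, and 790 of these had CUR0 and Control means within 1.5-fold. The fold condition then removed all but the 75. Without the limit on CUR0 and Control the list would hold 106 genes; of the 31 left out by it, the CUR0 mean was below the Control mean in 24 and above it in 7.

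Values near the thresholds show what the limits cut. The member closest inside the fold limit, at 2.02, averaged 17.5 ± 7.6 TPM in CUR50, 36.3 ± 2.5 TPM in CUR0 and 36.2 ± 6.0 TPM in Control (SD, n = 3 each). The gene closest outside it, at 1.99, was far more abundant than any member, with means of 1754 TPM in CUR50, 4043 TPM in CUR0 and 3495 TPM in Control. Inside the limit on CUR0 and Control, the nearest member had a fold of 1.49 between these means, and the nearest gene outside had 1.51. The lowest Control mean among members was 5.19 TPM, and the nearest gene below the minimum had 4.80 TPM. For the separation of the groups, the narrowest member had a log2 distance of 0.017, and the nearest gene outside an overlap of 0.021.

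Of the 75 members, 49 were called lower in CUR50 than in CUR0 by limma, at a Benjamini-Hochberg adjusted p under 0.05 over all tested genes, where 2.20% of all tested genes were called lower. For CUR50 against Control it was 64 members, beside 6.45% of all tested genes. The 49 were all among the 64, and 11 members were called in neither comparison. Both comparisons entered the choice of members and share the CUR50 libraries, so nothing is read from these counts. All 75 passed the filter for testing, which the rule's minimum on the Control mean favors.

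Leaving out a library did not always move these counts in step with the calls over all tested genes. For CUR50 against CUR0, 1516 genes were called in either direction. Without CUR0 replicate 3 the fit called 22 genes, 1 of them a member, and without CUR0 replicate 2 it called 36, of which 3 were members. Without CUR0 replicate 1 it called 917, with 29 members. Without CUR50 replicate 3 it called 393 genes with 28 members, without CUR50 replicate 2 it called 2261 with 56, and without CUR50 replicate 1 it called 3457 with 49. Without Control replicate 2 or 3 it called 488 and 596 genes, with 30 and 32 members; Control libraries enter this comparison through the shared estimate of spread and the filter. With only the 6 libraries compared it called 134 genes, with 13 members.

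For CUR50 against Control, 4007 genes were called in either direction. Without Control replicates 1, 2 and 3 in turn the fit called 1248, 1071 and 908 genes, with 42, 36 and 35 members. Without CUR50 replicate 2 it called 4879, with 66 members. Without CUR50 replicate 1 it called 4670, more than the full fit, but with 57 members. Without CUR50 replicate 3 it called 2549, with 52 members.

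**Figure D3:**
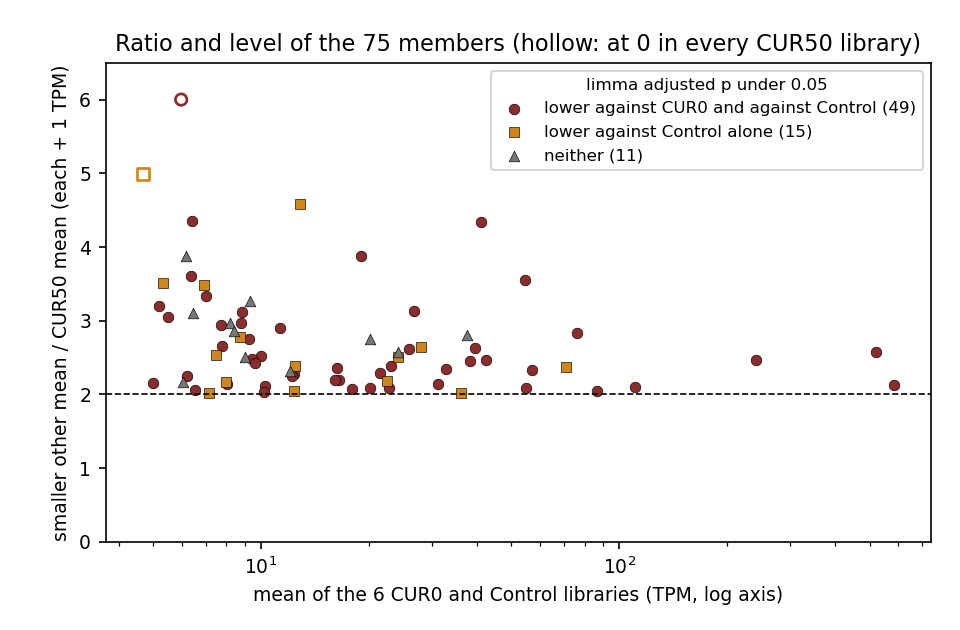
Ratio of the smaller of the CUR0 and Control means to the CUR50 mean, each with 1 TPM added, against the mean of the 6 CUR0 and Control libraries on a log axis; each mark is 1 member, shaped by its calls in limma, and the dashed line is the 2-fold limit. Hollow marks are the 2 members at 0 in every CUR50 library, whose ratio is set by the added 1 TPM; above 100 TPM the ratios lie between 2.10 and 2.58.

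Between the libraries of a group, the members varied most in CUR50. Their median SD over 3 libraries on the log2(TPM + 1) scale was 0.53 in CUR50, 0.20 in CUR0 and 0.25 in Control, against 0.32, 0.21 and 0.18 over all tested genes. Genes of the members' Control levels had median CUR50 SDs of 0.27 from 5 to 10 TPM, 0.21 from 10 to 50 TPM and 0.19 from 50 TPM upward, where the members had 0.57, 0.55 and 0.45. The members were chosen on these same CUR50 values, so the comparison of spread is a description. The members were also at lower levels in CUR50 than those genes, and the part of level in the spread was not tested. In 9 members CUR50 replicate 2 was above 0 and CUR50 replicate 1 was at most 10% of it. These include members with CUR50 replicate 1 listed at 0, in 1 case beside only 0.69 TPM in CUR50 replicate 2. The share over all genes and the other pairs of replicates were not counted, so nothing is read from this count.

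The member with the widest spread had 0.74, 22.8 and 13.8 TPM in CUR50, 39.1, 29.7 and 46.1 TPM in CUR0, and 38.9, 38.3 and 33.2 TPM in Control. Another had 0.10, 12.3 and 3.67 TPM in CUR50, 13.6, 16.3 and 19.4 TPM in CUR0, and 28.9, 22.4 and 20.6 TPM in Control. A gene of the same kind had 0.80, 16.8 and 8.25 TPM in CUR50, 22.0, 26.3 and 23.1 TPM in CUR0, and 23.3, 23.7 and 26.4 TPM in Control. In all 3 of these genes CUR50 replicate 1 was near 0, CUR50 replicate 2 came nearest the other groups and CUR50 replicate 3 lay between. Their SD in TPM was larger in CUR50 than in CUR0 or in Control. In the second of them every CUR0 value was also below every Control value.

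Other members were even in CUR50. One had 6.43, 6.46 and 6.11 TPM in CUR50, 17.9, 16.1 and 17.1 TPM in CUR0, and 13.0, 13.0 and 19.2 TPM in Control. Another had 6.33, 6.25 and 7.09 TPM in CUR50, 13.99, 17.3 and 15.6 TPM in CUR0, and 20.8, 16.8 and 14.6 TPM in Control. In both genes the CUR50 libraries differed by less than the Control libraries did. A further one had 5.56, 5.49 and 4.35 TPM in CUR50, 17.5, 19.5 and 19.96 TPM in CUR0, and 14.6, 12.9 and 13.0 TPM in Control, with every CUR0 value above every Control value.

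Which CUR50 library was highest or lowest was counted over the members and over other genes. CUR50 replicate 3 was the highest of the group in 19 of 75 members (25.3%), but in 48.3% of the 14608 genes with a Control mean of at least 5 TPM. CUR50 replicate 2 was the highest in 36 members (48.0%), against 33.1% of those genes, and CUR50 replicate 1 in 20 (26.7%), against 18.6%. CUR50 replicate 1 was the lowest or tied for it in 33 members (44%), against 59.4%. The rule bounds the highest CUR50 value, so this is a description.

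The side on which CUR0 fell relative to Control was not part of the rule. The CUR0 mean was below the Control mean in 50 members (66.7%) and above it in 25 (33.3%). Among the 12069 genes with a Control mean of at least 5 TPM and means within 1.5-fold, CUR0 was below Control in 64.8% and above it in 35.2%. The 3 CUR0 values lay all below the 3 Control values in 9 members (12.0%) and all above in 4 (5.33%), against 27.0% and 10% of those genes. By limma 0 of the 75 members were called in CUR0 against Control, and 1 had an unadjusted p under 0.05. Over all tested genes 8.26% were called in either direction, but the rule had kept only genes with like CUR0 and Control means, so nothing is read from this count. With only the 6 libraries compared, 5 members were called, 2 lower and 3 higher in CUR0, beside 5165 of the 27315 genes tested in that fit. The median difference was -0.12 in log2(TPM + 1) over the members and -0.09 over all tested genes.

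To see the lower level in libraries that the choice had not used, each CUR50 library was left out in turn, the rule was applied to the other 8 libraries, and the chosen genes were then read in the library left out. Without CUR50 replicate 1 the rule chose 93 genes, and 76 of them (81.7%) were below all 6 CUR0 and Control libraries in that replicate, where 26.5% of all genes with a Control mean of at least 5 TPM were. Without CUR50 replicate 2 it chose 160 genes, of which 97 (60.6%) were below all 6 in replicate 2, beside 12.5%. Without CUR50 replicate 3 it chose 94, of which 75 (79.8%) were below all 6 in replicate 3, beside 14.3%. The 6 CUR0 and Control libraries did enter the choice, and a gene chosen for high values there is more easily undercut; the size of that part was not tested.

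The left-out library was less low than those that made the choice. A gene was chosen only where the CUR50 libraries used were low, and the left-out library was under no such condition. This order is therefore a description. For the genes chosen without it, CUR50 replicate 1 differed from the mean of the 6 CUR0 and Control libraries by a median of -1.15 in log2(TPM + 1), against -1.43 for the CUR50 libraries used and -0.02 over all genes with a Control mean of at least 5 TPM. For CUR50 replicate 2 the medians were -0.65 in the left-out library, -1.58 in the libraries used and 0.14 over those genes. For CUR50 replicate 3 they were -1.24, -1.57 and 0.20. The left-out value was below the mean of the 6 in 85 of 93, 133 of 160 and 90 of 94 chosen genes. CUR50 replicate 2 had the smallest share below all 6 and the median nearest 0, and without it the rule chose the most genes.

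**Figure D4:**
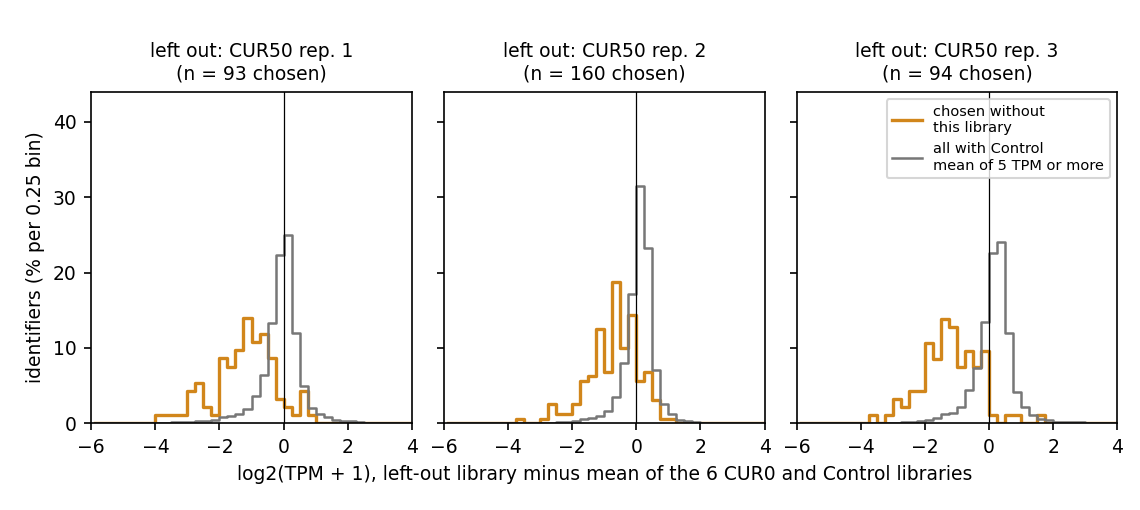
Distribution, in percent of genes per bin of 0.25, of log2(TPM + 1) in a left-out CUR50 library minus the mean of the 6 CUR0 and Control libraries, for the genes chosen without that library (orange) and for all genes with a Control mean of at least 5 TPM (grey). The chosen genes have medians of -1.15, -0.65 and -1.24 for CUR50 replicates 1, 2 and 3, and the grey curves have medians of -0.02, 0.14 and 0.20.

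The same was done with the other groups. Of the genes chosen without 1 CUR0 library, that library lay above all 3 CUR50 libraries in 81 of 85, 63 of 78 and 75 of 77 for CUR0 replicates 1, 2 and 3. Of those chosen without 1 Control library, it did so in 77 of 84, 75 of 77 and 68 of 75. The shares over all genes with a Control mean of at least 5 TPM were 14.5% to 18.3% for the CUR0 libraries and 26.8% to 28.6% for the Control libraries. The weakest of the 6 was CUR0 replicate 2, at 80.8%. The 3 CUR50 libraries did enter the choice here, and a gene chosen for low values there is more easily exceeded. The size of that part was not tested, so these shares are a description.

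The assembly groups similar sequences into clusters, whose genes can divide reads among themselves, and the choice of members did not use this grouping. The 75 members fell into 74 of 55661 clusters, and 1 cluster held a pair of them. Its first gene had 3.82, 3.70 and 3.97 TPM in CUR50, 6.86, 11.6 and 9.26 TPM in CUR0, and 10.3, 13.3 and 10.3 TPM in Control. The other had 1.55, 3.68 and 1.57 TPM in CUR50, 4.83, 6.09 and 6.24 TPM in CUR0, and 7.75, 7.66 and 6.61 TPM in Control. In both genes the order of the group means was CUR50, CUR0, Control from low to high.

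In 37 of the 75 members (49.3%) the cluster held no other gene, against 42.6% of the genes with a Control mean of at least 5 TPM. The clusters of the others held 61 genes that were no members, 31 of them with a Control mean of at least 5 TPM. Genes that met the rule are by definition not among these 31, so their values are a description. Their median difference between CUR50 and the mean of the 6 other libraries was 0.01 in log2(TPM + 1), within a range of -1.37 to 0.74, against -1.51 for the 22 members of the same clusters and 0.10 over all genes of that level. Only 2 of the 31 (6.45%) had all CUR50 values below the 6 others, close to the 6.0% of all such genes. When TPM was summed per cluster before the rule was applied, 54 clusters met it, and 47 of them were clusters of the members.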

How the data were processed

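Leaf RNA of 9 libraries was sequenced. The authors deposited TPM values for 82321 genes, with 2 decimals and column sums between 999997 and 1000003. Per the submitters' processing notes fastp, Bowtie2, RSEM and DESeq2 were used; their versions and roles are not stated there. All identifiers have the form that the Trinity assembler writes. Columns were assigned by library title (2 Control columns lack a letter of it), and 0 columns were left over. Without read numbers no count test or counting interval was possible.

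The rule was applied to the table as deposited, and its cap of 300 genes was not reached. Calls came from limma 3.58.1 (R 4.3.3) with an intensity trend on log2(TPM + 1), a pseudocount of 1 TPM, all 9 libraries in 1 fit (6 residual degrees of freedom), the 31754 genes that reached 1 TPM in 3 or more libraries and Benjamini-Hochberg adjustment. The script was tested on simulated data. Identifiers were printed for the member with the largest ratio and for the most abundant one; other members are given by their place. Members that illustrate even or uneven values were chosen after their values were seen. Members, rule, tests and alternatives were chosen with earlier results of these data known. Alternatives were quantile and median-of-ratios scaling, other limits of the rule, other filters, pseudocounts and weights, a replicate block and leaving out each library. Figures used Python 3.11.15 and matplotlib 3.10.9.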

Additional observations from a re-analysis of the deposited data

How the results depend on the processing

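The list of 75 genes grew to 128 with quantile normalization, 72 of them members, and to 141 with a Control minimum of 1 TPM; it shrank to 46 with a minimum of 10 TPM and to 18 where CUR50 had to be 3-fold lower. Leaving out 1 library gave from 75 to 160 genes, the highest without CUR50 replicate 2, with 61 to 71 members kept. Members called for CUR50 against CUR0, 49 in the report, were 13 with only the 6 libraries compared. They were 20 with the replicate block and 25 without the filter. Over all genes these 3 fits called 134 of 26748, 231 of 31754 and 507 of 80482, where the main fit called 1516 of 31754. Without 1 library the members called ran from 1, beside 22 genes in all, to 56, beside 2261. For CUR50 against Control the count of 64, beside 4007 genes in all, ran from 35 to 66 without 1 library, beside 908 and 4879 genes. For CUR0 against Control 0 members became 5 with only the 6 libraries compared, beside 5165 of 27315 genes called. The count was 1 with a filter of 5 TPM and 1 with array weights per group, beside 1977 of 15803 and 5104 of 31754 genes. Without 1 library it ran from 0 to 1, beside 588 to 4187 genes. The rule used all of these comparisons, so nothing is read from these counts. The replicate numbers showed no clear pairing of the libraries. Correlations of same-numbered libraries' deviations ran from -0.04 to 0.09, the highest between CUR50 replicate 1 and CUR0 replicate 1. Not every library was most like its own number. Such correlations cannot show that the libraries were unpaired. The median member difference for CUR0 against Control, -0.12, was -0.0043 with median-of-ratios scaling, -0.02 with quantile normalization, -0.06 without CUR0 replicate 1 and -0.07 without Control replicate 3. For CUR50 against CUR0 it ran from -1.71 to -1.38 and for CUR50 against Control from -1.70 to -1.46 over all scalings and left-out libraries. The cause of these movements was not tested, beyond fewer libraries or other limits by construction. The other 89 values were within 1.5 times of the reported count or, for medians and shares, moved by less than 1 SD. They include lists of 108 genes with median-of-ratios scaling, 51 with a narrower limit between CUR0 and Control and 54 with clusters summed. Also among the 89 were 33 members called for CUR50 against CUR0 without the trend, where 660 of 31754 genes were called. Depth is unknown, which limits the members listed at or near 0 most.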

Other observations

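The rule was also applied with the groups exchanged and with the direction turned, with the minimum of 5 TPM placed on the higher side. CUR50 alone was higher in 141 genes, beside the 75 in which it alone was lower. This balance turned with scaling: with quantile normalization 81 genes were higher and 128 lower in CUR50 alone, and with median-of-ratios scaling 102 and 108. CUR0 alone was lower in 48 genes and higher in 68. Control alone was lower in 170 genes and higher in 325, the most of the 6 patterns under each of the 3 scalings. The patterns share libraries and were not tested against each other.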
